A study of Mus musculus with 10 samples.

Results

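The 10 genes described here encode transcription factors of the naive state of mouse embryonic stem cells, other than Pou5f1, Sox2 and Nanog. They are Klf2, Klf4, Klf5, Esrrb, Tfcp2l1, Tbx3, Prdm14, Nr5a2, Nr0b1 and Zfp42. They were matched by symbol alone in the 36586 named genes of the expression tables, where each of the 10 found 1 gene; the set was drawn up with earlier results of these data known. RNA was measured in 4 libraries of the mouse embryonic stem cell line JM8.N4, each from a different genotype. These were Rad23b-/- cells (Rad23b-null), Rad23b-/- cells carrying either of 2 independent short hairpin RNAs against Xpc (Rad23b-/-Xpc KD1 and Rad23b-/-Xpc KD2, called knockdown 1 and knockdown 2 below), and wild-type cells. RAD23B on chromatin was mapped by chromatin immunoprecipitation and sequencing with guinea pig antibodies in Xpc-/- embryonic stem cells, in 1 library, and in wild-type cells of another line, D3, in 2 replicate libraries, each beside normal IgG. The labels do not say whether the lines were clonal or whether the replicates came from separate cultures. All 4 RNA libraries came from 1 line and all mutant RNA libraries are labelled Rad23b-/-, so each difference from wild type is that of 1 mutant library and 1 wild-type library and has no replicate check.

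Naive embryonic stem cells correspond to the epiblast before implantation, and they keep that state through a network of factors that replace each other in part. LIF acts through its receptor and STAT3 on Klf4 and Tfcp2l1, release of TCF7L1 repression by beta-catenin acts on Esrrb and Tfcp2l1, and these factors in turn sustain Pou5f1, Sox2 and Nanog. XPC, RAD23B and centrin 2 form the complex that recognises damaged DNA in nucleotide excision repair, and the study asked what the complex does as a coactivator of transcription in stem cells.

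The RNA libraries were read for their target and marker transcripts first. Rad23b stood at 43.9 RPKM (RNA reads scaled to transcript length and library size) in Rad23b-null cells, 35.8 with knockdown 1 and 52.5 with knockdown 2, against 229 in wild type. Xpc stood at 8.34, 0.915 and 0.895 RPKM in the same mutants, against 8.73 in wild type. Rad23b RNA was thus still present in the libraries labelled Rad23b-/-, at 19.1%, 16.1% and 23.3% of wild type, and which part of the gene these reads come from cannot be read from a value per gene. Of 8 stem cell markers none was listed at 0, and their summed level was 1962, 2383 and 2295 RPKM in the mutants, against 2962 in wild type. Of 9 fibroblast feeder markers, 2, 4 and 2 were listed at 0 in the mutants, against 2 in wild type. Their sum of 143, 154 and 193 RPKM in the mutants, against 323 in wild type, was almost entirely Vim and Fn1, which stem cells also express, and collagen genes were at or below 0.701 RPKM in every library. Vim and Fn1 were lower in the mutants, as most of the naive factors were, and their part in the results was not tested. Primitive endoderm markers summed to 8.75, 7.83 and 7.84 RPKM in the mutants, against 6.21 in wild type, and none of the 7 was listed at 0. The depth of the RNA libraries is unknown beyond a ratio: the steps between low values placed the mutant libraries at 1.29, 1.22 and 1.26 times the wild-type depth.

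Most of the naive factors had less RNA in all 3 mutant libraries than in wild type, Zfp42 stayed level, and Klf5 was higher. In Rad23b-null cells 6 of the 10 were at least 2-fold lower on the scale of log2(RPKM + 1), and so were 4.61% of the 15040 genes that reached an RPKM of 1 in 1 of the libraries compared. In knockdown 1 the count was 5 of 10 against 3.4% of genes, and in knockdown 2 it was 5 of 10 against 3.6%. None of the 10 was 2-fold higher in any of the 3, where 4.74%, 3.95% and 3.93% of genes were. Such a count in so short a list is not a result about these genes. The median log2 ratio of the 10 was -1.35, -0.89 and -1.07, while the median of all genes was -0.16, -0.14 and -0.14. The 3 comparisons share 1 wild-type library. Among genes at a wild-type RPKM of at least 10, which all 10 factors reached, 5.89%, 4.08% and 4.19% were at least 2-fold lower. In a bulk library, fewer cells that make a transcript and less of it per cell cannot be told apart.

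**Figure D1:**
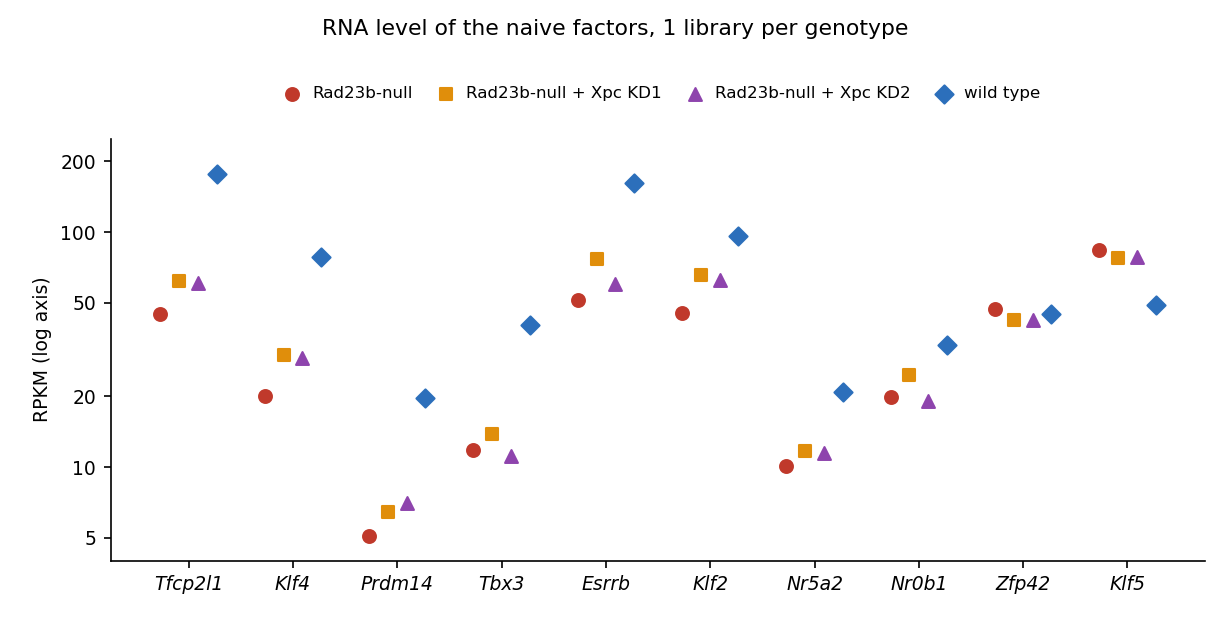
RPKM (log axis) of the 10 naive factor genes in Rad23b-null cells, knockdown 1, knockdown 2 and wild type, 1 point per library, in order of the log2 ratio in Rad23b-null cells. The wild-type point is above the 3 mutant points for 8 genes, among the mutant points for Zfp42 and below them for Klf5, where wild type is at 48.8 and the mutants lie between 78.0 and 84.1.

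Klf4, Klf2 and Klf5 encode Krüppel-like factors that bind similar GC-rich sites and can stand in for each other in mouse stem cells. Klf4 (ENSMUSG00000003032, mm9 chr4:55540012-55545347, minus strand) stood at 20.1 RPKM in Rad23b-null cells, 30.1 with knockdown 1 and 29.2 with knockdown 2, against 78.7 in wild type. All 3 mutants were well under wild type, and Rad23b-null cells were the lowest. The log2 ratios were -1.92, -1.32 and -1.38, or -1.76, -1.18 and -1.23 relative to the median of all genes. Klf2 (ENSMUSG00000055148, chr8:74842931-74845555) stood at 45.2, 65.4 and 62.5 RPKM in the mutants, against 95.9 in wild type. It was lower in all 3, but only Rad23b-null cells passed 2-fold (log2 ratio -1.07, and -0.91 relative to the median of all genes), while the knockdowns gave -0.51 and -0.59. Klf5 (ENSMUSG00000005148, chr14:99697909-99712624), which also acts in trophectoderm and epithelia, stood at 84.1, 78.0 and 78.3 RPKM in the mutants, against 48.8 in wild type. The mutants lay within 8% of each other and above wild type, with log2 ratios of 0.77, 0.70 and 0.69. At least 1.5-fold higher were 10.8% of all genes in Rad23b-null cells, 9.1% with knockdown 1 and 9.61% with knockdown 2. A gain past 1.5-fold was thus not rare, though these shares include genes with smaller gains than Klf5.

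Summed over Klf2, Klf4 and Klf5, the per-length level was 149 RPKM in Rad23b-null cells, 173 with knockdown 1 and 170.0 with knockdown 2, against 223 in wild type. Klf5 made up 56.3%, 45.0% and 46.1% of that sum in the mutants, against 21.8% in wild type. Klf4 made up 13.4%, 17.3% and 17.2%, against 35.2%. Klf2 made up 30.3%, 37.7% and 36.7%, against 42.9%. Klf5 was thus the most abundant of these transcripts in all 3 mutant libraries and the least abundant in wild type.

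Esrrb and Tfcp2l1 were the most abundant of the 10 transcripts in wild type. Esrrb (ENSMUSG00000021255, chr12:87702066-87862578), an orphan nuclear receptor downstream of beta-catenin, stood at 51.5 RPKM in Rad23b-null cells, 77.0 with knockdown 1 and 60.2 with knockdown 2, against 162 in wild type. The mutants did not reach the wild-type level, and knockdown 1 was nearest to it. The log2 ratios were -1.63, -1.02 and -1.39, and the knockdown 1 value was -0.88 relative to the median of all genes, short of 2-fold. Tfcp2l1 (ENSMUSG00000026380, chr1:120524521-120581744), a CP2 family factor that LIF and WNT signals share as a target, stood at 44.7, 62.0 and 60.8 RPKM in the mutants, against 177 in wild type. Its log2 ratio of -1.96 in Rad23b-null cells was the lowest of the 10, and the knockdowns were at -1.46 and -1.50. Its listed coordinates are shared with a 5S rRNA gene at 0 RPKM.

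Tbx3 and Prdm14 were lower to a like degree from lower levels. Tbx3 (ENSMUSG00000018604, chr5:120061271-120134733), a T-box factor that sustains Nanog, stood at 11.9 RPKM in Rad23b-null cells, 13.9 with knockdown 1 and 11.1 with knockdown 2, against 40.1 in wild type. All 3 mutants were between 28.2% and 35.6% of wild type. Its coordinates are shared with 3 noncoding genes, and the sources used here do not say whether its value is that of the merged locus. Prdm14 (ENSMUSG00000042414, chr1:13103537-13117244, minus strand), which holds down FGF signalling and DNA methylation in naive cells, stood at 5.07, 6.44 and 7.01 RPKM in the mutants, against 19.8 in wild type. The log2 ratios were -1.77, -1.44 and -1.35, and Prdm14 was the lowest of the 10 in each of the 4 libraries.

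The nuclear receptor genes Nr5a2 and Nr0b1 were lower by less. Nr5a2 (ENSMUSG00000026398, chr1:138740160-138857004, minus strand), whose product binds the Pou5f1 promoter region, stood at 10.2 RPKM in Rad23b-null cells, 11.7 with knockdown 1 and 11.5 with knockdown 2, against 21.0 in wild type. The mutants were close to each other at 48.5%, 57.2% and 55.7% of wild type, with log2 ratios of -0.98, -0.76 and -0.79 that fell short of 2-fold. Nr0b1 (ENSMUSG00000025056, chrX:83437102-83441286), which encodes the receptor DAX1 that binds OCT4 and NR5A proteins, stood at 19.8, 24.7 and 19.1 RPKM, against 33.2 in wild type. Knockdown 1 was the nearest to wild type at a log2 ratio of -0.38, and the others were at -0.72 and -0.74.

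Zfp42 did not follow the other factors. Zfp42 (ENSMUSG00000051176, chr8:44380421-44392363, minus strand), which encodes REX1 and is widely used as a marker of undifferentiated cells, stood at 47.0 RPKM in Rad23b-null cells, 42.4 with knockdown 1 and 42.3 with knockdown 2, against 44.6 in wild type. The mutants lay on both sides of wild type and within 6% of it, with log2 ratios of 0.07, -0.03 and -0.05. Zfp42 and Klf2 both lie on chromosome 8, where the 794 genes that passed the level filter had a median log2 ratio of -0.05 in Rad23b-null cells. The 783 and 789 such genes in the knockdowns had medians of -0.17 and -0.10, so none of these medians was far from that of all genes.

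**Figure D2:**
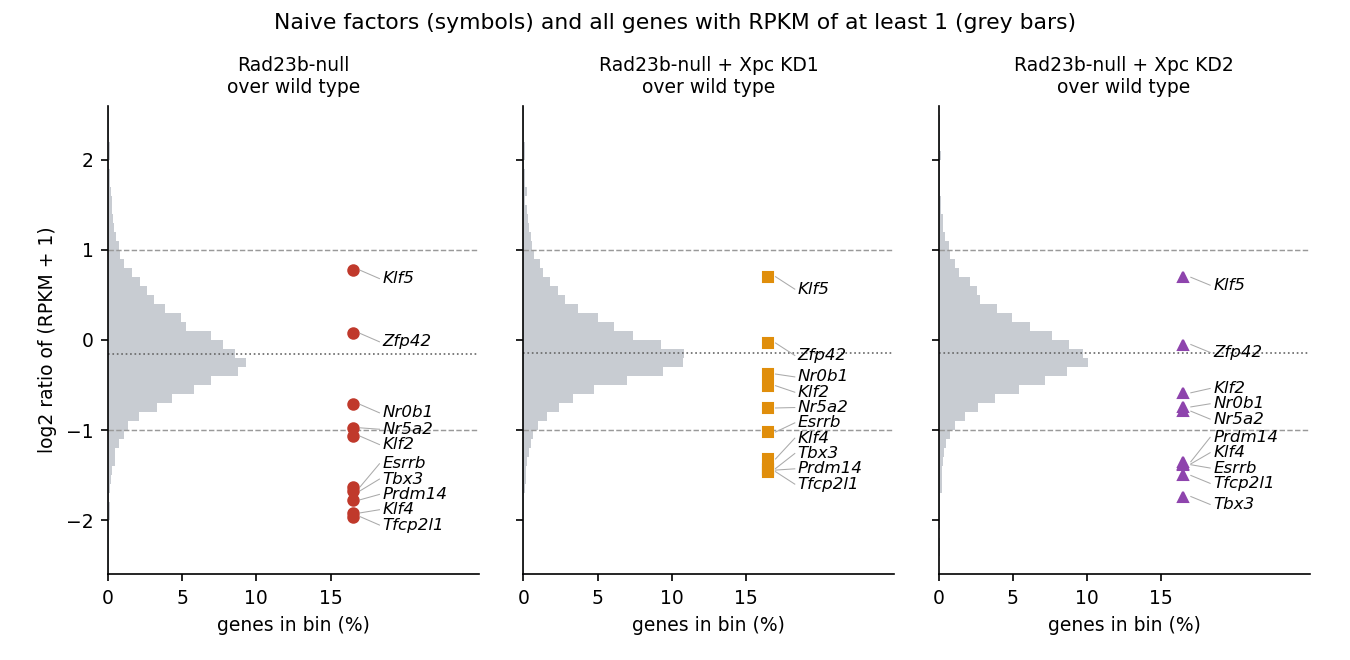
Ratio of each mutant to wild type, as log2 of (RPKM + 1), for the 10 naive factors (coloured symbols with names), and the share of all genes past the level filter that falls in each bin of 0.1 (grey bars). Dashed lines mark 2-fold and the dotted line the median of all genes; 6, 5 and 5 of the 10 factors lie at or under the lower dashed line, and Klf5 is the highest of the 10 in each panel.

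The order of levels changed between genotypes. In wild type Tfcp2l1 (177 RPKM) and Esrrb (162) came first, then Klf2 (95.9), Klf4 (78.7), Klf5 (48.8), Zfp42 (44.6), Tbx3 (40.1), Nr0b1 (33.2), Nr5a2 (21.0) and Prdm14 (19.8). In Rad23b-null cells Klf5 (84.1) came first, followed by Esrrb (51.5), Zfp42 (47.0), Klf2 (45.2) and Tfcp2l1 (44.7). With 1 library per genotype neighbours in these orders cannot be separated from the spread between libraries, and the last 4 of those differed by little. The 10 together summed to 340 RPKM in Rad23b-null cells, 412 with knockdown 1 and 382 with knockdown 2, against 721 in wild type.

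The knockdowns were closer to wild type than Rad23b-null cells at most of these genes, by less than 2-fold. Knockdown of Xpc in Rad23b-/- cells was read by setting each mutant over the wild-type value of its own table and comparing those ratios. No factor was 2-fold apart between knockdown 1 and Rad23b-null cells, where 3.62% of all genes were. Nor was any between knockdown 2 and Rad23b-null cells, where 3.45% were. Such counts in so short a list are not a result about these genes. The log2 differences for knockdown 1 over Rad23b-null ran from -0.11 at Zfp42 to 0.61 at Esrrb, with a median of 0.33, and for all genes the median was 0.02. For knockdown 2 over Rad23b-null they ran from -0.12 at Zfp42 to 0.54 at Klf4, with a median of 0.21, and again 0.02 for all genes. Klf2, Klf4, Esrrb, Tfcp2l1, Prdm14 and Nr5a2 were higher in both knockdowns than in Rad23b-null cells, Klf5 and Zfp42 were lower in both, and Tbx3 and Nr0b1 differed in sign between the knockdowns. Both differences share the Rad23b-null library, so they are not independent of each other.

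The 2 hairpins gave values within 2-fold of each other at every factor. Between knockdown 2 and knockdown 1 only 3.36% of all genes were 2-fold apart. The lack of such a gap in so short a list is thus not a result about these genes. Klf5, at 78.3 and 78.0 RPKM, and Zfp42, at 42.3 and 42.4 RPKM, differed least. The widest gaps were at Nr0b1 (19.1 and 24.7 RPKM, log2 difference -0.36), Esrrb (60.2 and 77.0 RPKM, -0.36) and Tbx3 (11.1 and 13.9 RPKM, -0.31). Among the 8034 genes with a wild-type RPKM of at least 10, the knockdowns differed by a median of 0.12 on the log2 scale. Of these genes 68% differed by at most 0.19 and 95% by at most 0.51. The median difference of the factors was 0.07, while the gaps at Nr0b1, Esrrb and Tbx3 lay between 0.19 and 0.51.

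The authors' deposited table gives p-values without replicates for these ratios. For Klf4 it lists 0, 0.002 and 0.07 in Rad23b-null cells, knockdown 1 and knockdown 2, and for Prdm14 it lists 0, 0.001 and 0.003. For Klf2 the authors' deposited table lists 0.025 in Rad23b-null cells, 0.23 with knockdown 1 and 0.181 with knockdown 2. For Tbx3 the authors' deposited table lists 0.165, 0.168 and 0.125. For Esrrb, at 31.9% of wild type in Rad23b-null cells, the authors' deposited table lists 1, and for Tfcp2l1, at 25.3%, it lists 0.966. The sources used here do not say how these p-values were made.

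Of the core factors Nanog was lower in all 3 mutants by as much as many of the naive factors. Nanog, the homeobox factor of naive cells, stood at 197 RPKM in Rad23b-null cells, 243 with knockdown 1 and 209 with knockdown 2, against 512 in wild type. Pou5f1 stood at 1152, 1468 and 1431 RPKM, against 1603, and Sox2, on coordinates shared by 7 genes, at 123, 135 and 133, against 184. The log2 ratios of Nanog were -1.37, -1.04 and -1.26, and the other core factors stayed within 2-fold. None of 8 genes of the LIF receptor and STAT3 pathway was 2-fold apart in any mutant, where 4.61% of all genes were lower and 4.74% higher by that much in Rad23b-null cells, so a count of 0 in so short a list is not a result about these genes. Their median log2 ratios were -0.10, -0.11 and 0.04. Among these, Stat3, the transducer of LIF, stood at 18.4, 17.1 and 24.4 RPKM, against 30.2 in wild type, while its target Socs3 stood at 62.2, 61.5 and 80.3 RPKM, against 68.4. Of 8 WNT and beta-catenin genes none was 2-fold apart in Rad23b-null cells or in knockdown 2. In knockdown 1, where 3.4% of all genes were 2-fold lower, 1 of the 8 was. That gene was Tcf7, on coordinates shared by 18 genes, at 28.5, 26.0 and 29.1 RPKM in the 3 mutants, against 55.1 in wild type. Its log2 ratios of -0.93, -1.02 and -0.88 lay near 2-fold in every mutant. Tcf7l1, the repressor of Esrrb and Tfcp2l1, stood at 40.9, 28.1 and 30.3 RPKM in the mutants, against 32.6 in wild type.

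Of 10 matched FGF and ERK genes 1 was 2-fold higher in each mutant, where 4.74%, 3.95% and 3.93% of all genes were. A count of 1 in so short a list is not a result about these genes. The gene was Spry4, an ERK feedback inhibitor, at 28.8, 28.8 and 31.4 RPKM in the mutants, against 12.9 in wild type. Dusp6, the ERK phosphatase gene, stood at 33.9, 29.4 and 29.5 RPKM, against 17.6, while Etv4 and Etv5 were within 1.5-fold. Of 15 other genes of the naive state, a list that includes Zfp42, 4 were 2-fold lower in Rad23b-null cells, 4 with knockdown 1 and 5 with knockdown 2. Of all genes 4.61%, 3.4% and 3.6% were 2-fold lower in the same mutants. Dppa3, an oocyte and naive cell protein gene, stood at 31.3, 29.0 and 19.6 RPKM, against 83.8 in wild type. Tcl1, a cofactor of AKT, stood at 23.2, 30.8 and 19.8 RPKM, against 66.0. Tdh and Lefty1 were also 2-fold lower in all 3 mutants. Myc, at 11.5, 10.9 and 9.71 RPKM, against 4.65 in wild type, was 2-fold higher in Rad23b-null cells and knockdown 1. In knockdown 2 its log2 ratio was 0.94, just short of 2-fold on the log2(RPKM + 1) scale, which understates low genes.

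Of 17 formative and primed genes, 15 passed the level filter. None was 2-fold lower in any mutant, where 4.61%, 3.4% and 3.6% of all genes were. Such a count in so short a list is not a result about these genes. Otx2, which drives exit from the naive state, stood at 11.7, 13.0 and 15.8 RPKM in the mutants, against 11.0 in wild type, and Fgf5, a defining gene of the primed epiblast, was at or below 0.58 RPKM in every library. The list medians of 0.08, 0.14 and 0.46 lay above the medians of all genes.

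**Figure D3:**
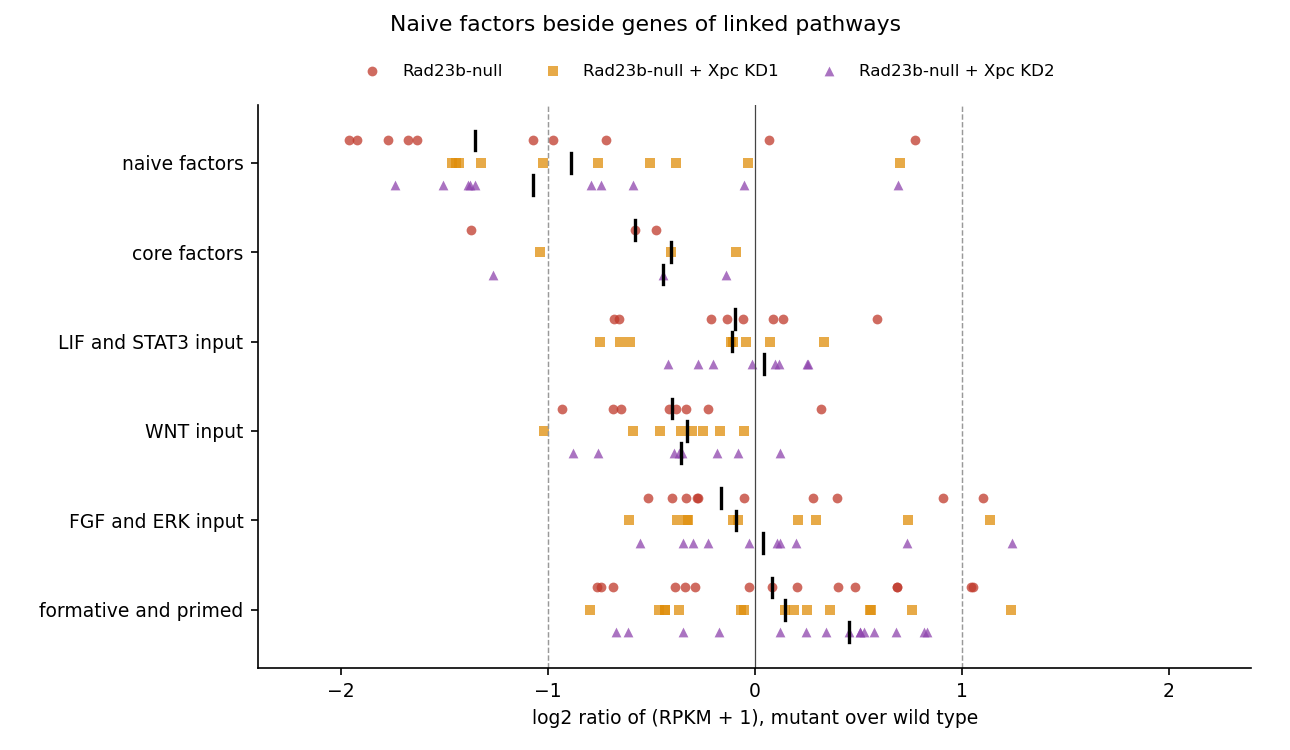
Ratio of each mutant to wild type, as log2 of (RPKM + 1), for every gene past the level filter in 6 lists; 1 symbol per gene, with the list median as a black bar. Dashed lines mark 2-fold. The naive factors have the lowest medians (-1.35, -0.89 and -1.07), and the LIF and STAT3 genes lie within 2-fold throughout.

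By the Euclidean distance over the 3 log2 ratios, among 4905 genes with coordinates of their own and a wild-type RPKM of at least 10, the genes most like Tfcp2l1 were Tcea3 (distance 0.15), Acot1 (0.19) and Klf4 (0.20). Klf4, another of the 10, was thus the third nearest. Nearest to Esrrb were Fggy (0.13), Vmn2r-ps106 (0.18) and Atp5g1 (0.18). Nearest to Klf2 were Acat2 (0.06), Ifitm3 (0.09) and Chek2 (0.11). These distances rest on 4 libraries with 1 wild-type library in common.

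RAD23B regions, which the authors called against IgG in wild-type D3 cells, lay in or within 20 kb of 9 of the 10 loci in both replicates. Such regions were listed for 66.2% of all 36586 genes and for 91.1% of genes with a wild-type RPKM of at least 10 in JM8.N4 cells, so this count is close to that of expressed genes. Regions with an authors' fold of at least 2 in both replicates were listed at 8 of the 10, against 43.1% of all genes and 59.2% of genes at that level, and Klf4 and Nr0b1 had none. Klf4 had 3 shared regions, none above 1.87 in replicate 1, although 1 reached 2.48 in replicate 2. The 10 windows held 70 shared regions, with 44 in a locus, 13 upstream and 13 downstream. The median number per gene was 7, against 3 for genes at that level, and longer loci have wider windows. The maximum number of overlapping reads in a region, divided by its deposited value scaled to library size (RPM), gave a depth of 109 M reads for replicate 1 and 62.5 M reads for replicate 2.

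**Figure D4:**
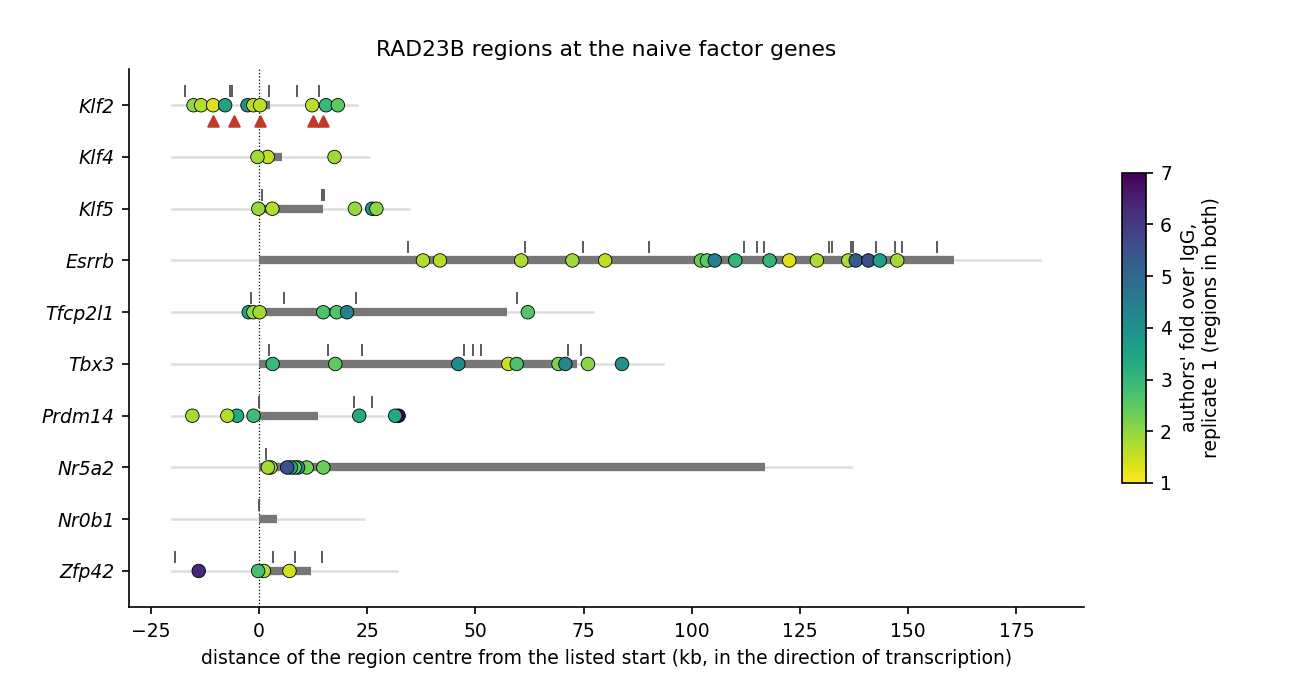
Positions of RAD23B regions at the 10 genes, as the distance of each region's centre from the listed start in kb (positive in the direction of transcription). Thick grey bars are the listed loci and thin lines the 20 kb on either side; circles are regions listed in both wild-type replicates, coloured by the authors' fold in replicate 1, small ticks are regions listed in replicate 1 without an overlapping replicate 2 region, and red triangles are regions of the Xpc-null list, which occur at Klf2 alone.

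At Esrrb all 17 shared regions lay inside the 160.5 kb locus, and the 7 with a fold of at least 2 in both replicates lay between 103 and 143 kb from the listed start. The nearest of the 17 began 37.7 kb from that start. The pair of highest fold lay 137 and 140 kb from it. One of these (mm9 chr12:87839470-87840445) held 779 RAD23B and 140 IgG reads in replicate 1, with authors' folds of 5.28 and 4.94 in the replicates. RefSeq gives Esrrb a second start 60.5 kb beyond the first in build GRCm38.p6, and a weak shared region (chr12:87762299-87763028, folds 1.74 and 1.97) began 60.2 kb from the listed mm9 start. No coordinates were converted between builds, so that start and this region were not matched.

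Nr5a2 showed a different layout. Its 8 shared regions all began within 14.6 kb of the listed start of a 117 kb locus, and 6 of them had a fold of at least 2 in both replicates. The strongest (chr1:138850066-138850896), 6.11 kb from the listed start, held 400 RAD23B and 68 IgG reads, with folds of 5.54 and 4.50. RefSeq places a second Nr5a2 start 6.82 kb beyond the first in GRCm38.p6, and this was likewise not converted.

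Prdm14 had no shared region within its own locus. Of its 7 shared regions 4 lay upstream and 3 downstream. The strongest, chr1:13084559-13085406, lay 31.8 kb beyond the start and outside the locus, with 313 RAD23B and 42 IgG reads and folds of 6.97 and 5.38. It stood at percentile 99.9 of the replicate 1 list by fold and 98.2 of the replicate 2 list. The upstream region nearest to the start (chr1:13117947-13119051, 0.70 kb away) had folds of 2.84 and 2.91.

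The gene with level RNA, Zfp42, had a strong region as well. An upstream region 13.4 kb from the start (chr8:44405745-44406809) held 904 RAD23B and 136 IgG reads, with folds of 6.30 and 6.16. A region over the start (chr8:44392115-44392999) held 442 and 151 reads, with folds of 2.78 and 2.72. The regions were mapped in D3 cells and the RNA in JM8.N4 cells.

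At Tfcp2l1, 5 of 7 shared regions had a fold of at least 2 in both replicates, the strongest 19.9 kb inside the gene (chr1:120544423-120545307; 591 RAD23B and 130 IgG reads, folds 4.31 and 3.70). At Tbx3, 8 of 9 did, and 7 of the 9 lay nearer to the start of the noncoding gene Gm16065 than to the listed start of Tbx3. That listed start is the edge of coordinates that Tbx3 shares with noncoding genes, so distances to its own start are unknown. At Klf5 the strongest of 5 lay 25.7 kb beyond the start and outside the locus (chr14:99723598-99724549; 493 and 119 reads, folds 3.93 and 2.68). Nr0b1 had 1 region, over its start (chrX:83436822-83437174; 77 RAD23B and 29 IgG reads, fold 2.48), and this was listed in replicate 1 alone. Its maximum of 64 overlapping reads was near the lowest in that list, 61, and replicate 2 was the shallower library; the part of depth was not tested.

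For Tbx3 the listed start is the edge of coordinates shared with other genes, so whether a region covers its own start is unknown. A shared region covered the listed start of 5 of the 10 genes, namely Klf2, Klf4, Klf5, Tfcp2l1 and Zfp42, against 28.5% of all genes and 63.3% of genes with a wild-type RPKM of at least 10. The promoters of the 4 of these with an entry in RefSeq are shown because RAD23B was listed over their starts. Each is given as the 250 bases before the start (GRCm38.p6), 5′ to 3′ on the gene's strand, with capitals for the motif matches that are described after them.

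Klf4 promoter, chr4:55532476-55532725, minus strand: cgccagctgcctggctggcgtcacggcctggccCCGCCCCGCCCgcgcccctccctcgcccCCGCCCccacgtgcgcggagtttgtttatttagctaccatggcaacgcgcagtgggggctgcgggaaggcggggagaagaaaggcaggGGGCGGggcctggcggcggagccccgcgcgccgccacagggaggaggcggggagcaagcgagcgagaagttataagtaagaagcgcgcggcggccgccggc
Klf2 promoter, chr8:72318812-72319061, plus strand: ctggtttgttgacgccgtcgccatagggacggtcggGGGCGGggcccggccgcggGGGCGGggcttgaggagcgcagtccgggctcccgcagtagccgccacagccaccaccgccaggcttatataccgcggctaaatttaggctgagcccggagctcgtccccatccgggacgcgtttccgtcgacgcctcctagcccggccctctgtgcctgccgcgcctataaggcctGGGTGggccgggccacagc
Tfcp2l1 promoter, chr1:118627695-118627944, plus strand: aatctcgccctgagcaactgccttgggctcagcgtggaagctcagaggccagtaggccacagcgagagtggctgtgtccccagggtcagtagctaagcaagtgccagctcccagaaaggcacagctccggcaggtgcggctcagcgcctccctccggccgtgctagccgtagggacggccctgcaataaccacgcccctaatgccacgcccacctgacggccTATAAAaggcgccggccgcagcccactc
Zfp42 promoter, chr8:43307010-43307259, minus strand: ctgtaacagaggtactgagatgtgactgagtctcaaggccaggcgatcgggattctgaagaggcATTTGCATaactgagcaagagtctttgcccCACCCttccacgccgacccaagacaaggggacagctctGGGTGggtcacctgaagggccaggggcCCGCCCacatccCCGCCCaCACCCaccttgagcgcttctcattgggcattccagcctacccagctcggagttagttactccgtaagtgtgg

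Searched on both strands were the OCT4 octamer ATGCAAAT, the SOX core ACAATG, the ESRRB site AAGGTCA, the KLF box CACCC, the GC box GGGCGG, the STAT3 site TTCCNGGAA and the TATA box TATAAA. Zfp42 alone of the 4 had an octamer, 186 bases before its start, and it also had 3 KLF boxes and 2 GC boxes. The octamer stood in 1.6% of all 32851 promoters of this length, the KLF box in 52% and the GC box in 32.7%. Klf4 had 4 GC boxes, of which a pair overlap by 1 base, and no KLF box. Klf2 had 2 GC boxes and 1 KLF box. Tfcp2l1 had a TATA box 28 bases before its start, as did 12.4% of promoters at any position, and none of the other motifs. The SOX core, ESRRB and STAT3 letters were in none of these windows. They stood in 10.7%, 4.08% and 0.913% of all promoters, so their absence from 4 windows is not a result. GC content was 74%, 71.2%, 65.2% and 58.4% for Klf4, Klf2, Tfcp2l1 and Zfp42, against a median of 52.4% over all promoters. RefSeq promoters were matched for 7 of the 10 genes, and Klf5, Tbx3 and Prdm14 had no entry.

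The list from Xpc-null cells held regions at 1 of the 10 genes, Klf2, against 4.95% of all genes and 9.05% of genes with a wild-type RPKM of at least 10. That list held 828 regions, of which 57.6% lay on chromosome 8, and 46.6% of the genes of chromosome 8, or 66.3% of those at a wild-type RPKM of at least 10, had such a region in or within 20 kb. Zfp42, on the same chromosome, had none. In this list the authors' fold was close to proportional, though not equal, to the IgG-headed reads over the RAD23B-headed reads. The IgG-headed count was also the larger in all 828 regions, so the values do not say in which library the regions were called. At Klf2 there were 5 such regions, with the authors' folds between 1.33 and 1.73. The region over the Klf2 start (chr8:74842808-74843309) held 110 reads under the RAD23B heading and 179 under the IgG heading. The wild-type region there (chr8:74842443-74843929) held 560 RAD23B and 330 IgG reads in replicate 1, with folds of 1.62 and 1.50. Of the 10 shared wild-type regions at Klf2, 4 overlapped a region of the Xpc-null list. The strongest wild-type region at Klf2, 2.20 kb upstream (chr8:74839847-74840728; 670 RAD23B and 160 IgG reads, folds 3.97 and 3.86), did not. The part of chromosome 8 as a whole in the Klf2 regions was not tested.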

How the data were processed

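The authors called regions with RAD23B and IgG libraries, and in the Xpc-null list the values do not show which of the pair was the sample. The submitters' processing notes name Partek and mm9, and no settings. Per the file headers, each list gives read counts, the maximum of extended reads (a coverage signal), that maximum in RPM, the authors' fold (a ratio) and the authors' p-value. The replicate 2 list heads its read columns with the replicate 1 libraries, so its 2 read columns were not used. Deposited RPKM values were made by the authors; the submitters' processing notes name Cuffdiff, Cufflinks 2.0.2 and TopHat2 2.0.6. Each table was scaled separately: wild-type values of the Rad23b-null table, printed here, were 1.03 and 1.02 times those of the knockdown tables, and ratios used the wild type of the same table. RPKM of exactly 1 was read as 0, since other values go far below 1. Lines naming no gene (72 of 36658, 0.00144% of wild-type RPKM) were left out.

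Ratios are log2 of (RPKM + 1), which understates the change of low genes, among genes that reached an RPKM of 1 in 1 of the libraries compared. With 1 RNA library per genotype no test was possible. Shared regions overlap by at least 1 bp between replicates. The 10 genes and the gene lists were chosen with earlier results of these data known. Named were the 10 genes, the 3 nearest to each of the 3 most abundant, list genes 2-fold apart in all 3 comparisons and at most 4 others per list, except 1 list gene that is not reported here. Counting code was tested on simulated data. Python 3.11.15, numpy 2.4.6, pandas 2.3.3 and matplotlib 3.10.9 were used. Alternatives were other pseudocounts, no filter, centring, genes on their own coordinates, other distances, folds and overlaps.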

Additional observations from a re-analysis of the deposited data

How the results depend on the processing

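The count of naive factors at least 2-fold lower in knockdown 1 was 5, and 3 with a pseudocount of 10 RPKM, where Prdm14 (log2 ratio -0.83) and Esrrb (-0.94) no longer passed. With genes of their own coordinates alone, which leaves out Tfcp2l1 and Tbx3, it was 3 in knockdown 1 and 3 in knockdown 2. In Rad23b-null cells the count was 6, and 4 under each of these alternatives. There the pseudocount of 10 RPKM took Prdm14 (log2 ratio -0.98) and Klf2 (-0.94) under 2-fold. In knockdown 2 that pseudocount took Prdm14 (-0.79) under 2-fold and left a count of 4. The counts of these comparisons moved by at most 1.5 times under the other alternatives. A pseudocount of 0.1 RPKM took Nr5a2 past 2-fold in Rad23b-null cells (log2 ratio -1.04), and centring on the median of all genes took Klf2 in Rad23b-null cells and Esrrb in knockdown 1 under it. The factors with a RAD23B region were 9 in both replicates, and between 9 and 10 with either replicate left out. No paired analysis was possible because no RNA group has a second library, and the RAD23B and IgG libraries that share a replicate number were already compared within each of the authors' lists, with no read counts of replicate 2 used here from which to fit both. Replicate 2 had 62.5 M reads and replicate 1 had 109 M, and the part of depth in the length of their lists was not tested.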

Other observations

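Few relatives of the naive factors were 2-fold apart, as few of all genes were (4.61% lower and 4.74% higher in Rad23b-null cells). Of 17 Krüppel-like genes 14 passed the level filter. In Rad23b-null cells Klf4 and Klf2 were 2-fold lower, in the knockdowns Klf4 alone was, and no member was 2-fold higher in any mutant. Klf9 stood at 44.9 RPKM in Rad23b-null cells, 46.0 with knockdown 1 and 41.6 with knockdown 2, against 30.4 in wild type, and Klf3 at 35.8, 37.3 and 36.8 RPKM, against 41.2. Of 6 CP2 and grainyhead genes Tfcp2l1 alone was 2-fold lower in each mutant, while Ubp1 stood at 31.1, 30.0 and 34.1 RPKM, against 30.8, and Grhl2 was 2-fold higher in knockdown 1 (7.43 RPKM, against 3.19 in wild type). Of 7 receptors in the ESRR, NR5A and NR0B families 4 passed the filter and Esrrb alone was 2-fold apart, and Esrra stood at 5.97, 7.41 and 7.03 RPKM, against 6.42. Of 11 T-box and PRDM genes, which include partners of PRDM14, Tbx3 and Prdm14 were the 2 that were 2-fold apart in each mutant. Cbfa2t2, the corepressor that PRDM14 binds, stood at 31.7, 29.8 and 33.6 RPKM in the mutants, against 59.5 in wild type, a log2 ratio of -0.89, -0.94 and -0.78. Prdm1 stood at 2.78, 3.97 and 2.48 RPKM, against 5.67 in wild type. Yy1, from whose family Zfp42 derives, stood at 55.5, 53.9 and 58.9 RPKM, against 63.4.

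Markers of other lineages moved in both directions, mostly within 2-fold. Of all genes 4.61%, 3.4% and 3.6% were 2-fold lower in the mutants, and 4.74%, 3.95% and 3.93% were 2-fold higher. Of 8 trophectoderm markers Hand1 was 2-fold higher in each mutant, at 3.31, 3.48 and 1.70 RPKM, against 0.329 in wild type. Tfap2c, in the same list, was 2-fold lower in Rad23b-null cells and knockdown 2, at 22.4 and 22.7 RPKM, against 59.2 in wild type. Of 7 primitive endoderm markers 3 passed the filter and none was 2-fold apart on the log2(RPKM + 1) scale, with list medians of 0.81, 0.74 and 0.67. That scale understates low genes: Gata4 stood at 3.02, 2.70 and 2.67 RPKM in the mutants, against 1.26 in wild type, and Sox7 at 2.76, 2.88 and 2.38 RPKM, against 1.15. Of 5 matched neural markers 4 passed, and 1, Tubb3, was 2-fold lower in knockdown 2, on coordinates shared by 156 genes.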
